A study of Schizosaccharomyces pombe with 8 samples.

Results

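A set of 9 genes of fission yeast (Schizosaccharomyces pombe) that take part in phosphate acquisition, lie beside the phosphate-regulated gene tgp1, or regulate these genes was picked by their systematic IDs from 5129 listed genes. The 9 genes are pho1 (SPBP4G3.02), pho84 (SPBC8E4.01c), tgp1 (SPBC1271.09), its neighbours SPBC1271.08c and SPBC1271.07c, and the regulators pho7 (SPBC27B12.11c), csk1 (SPAC1D4.06c), aps1 (SPAC13G6.14) and asp1 (SPCC1672.06c). Poly(A)-selected RNA was sequenced in 8 libraries, 2 in each of 4 groups. The groups labelled WT and seb1-1 form the WT pair, and seb1-1 is a mutant allele of the gene for Seb1, an RNA-binding protein that acts in transcription termination and in the pausing of RNA polymerase II (RNAPII). The strains labelled epe1delta and epe1delta tfs1DN form the epe1KO pair, and both are labelled as deleted for epe1, whose product counteracts heterochromatin. The latter strain has an added copy of tfs1, inserted at leu1 under the thiamine-repressible nmt1 promoter, that codes for a dominant-negative TFIIS. This factor normally restarts RNAPII that has stalled and slid back. The study describes epe1delta comparison strains that carry a vector without tfs1DN, and also a parental epe1delta strain. The labels do not state which of these gave the RNA samples. For tfs1DN, the study reports RNA-seq of an isolate with an ectopic heterochromatin region that holds cta3 and its8. All strains were grown in a rich medium per the study's methods, and none of the 4 groups is described as starved for phosphate. The study states that its experiments with tfs1DN in epe1delta cells were done with thiamine present. Its methods for RNA-seq name no added thiamine.

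The phosphate regulon of fission yeast is a set of genes that the cell uses to obtain phosphate from its surroundings. Its core holds pho1, an acid phosphatase of the cell surface, pho84, a transporter of inorganic phosphate, and tgp1, a transporter of glycerophosphodiesters. When phosphate is plentiful, a long non-coding RNA (lncRNA) is transcribed across the promoter of each of the 3 genes and interferes with it: prt upstream of pho1, prt2 upstream of pho84, and nc-tgp1 upstream of tgp1. Early termination of the lncRNA relieves this interference and lets the zinc-finger activator Pho7 act at the mRNA promoter. Inositol pyrophosphates, made by the kinase Asp1 and broken down by enzymes that include Aps1, favour early termination. Csk1, a kinase that activates cyclin-dependent kinases, is known as a repressor of pho1.

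The values are means over the 4 libraries of a pair, in normalized counts, so they hold no spread between libraries and do not separate WT from seb1-1, or epe1KO from epe1KO_tfs1DN. No test between groups was made, and every value below is a description. The means sum to 22456953 in the WT pair and 15644260 in the epe1KO pair. The lowest means are sums of whole reads, and the size of these steps gave the relative depth of the libraries without saying which library is which. By these steps the deepest library of the WT pair was 1.57 times as deep as the shallowest, and in the epe1KO pair 7.06 times, where 1 library had a size factor of 0.265 beside 1.24 to 1.87 in the other 3. If the normalized totals of the libraries in a pair were equal, this library held about 4150000 counted reads and the other 7 held about 18070000 to 29290000. The mean of epe1 was 712 in the WT pair and 706 in the epe1KO pair, a level in the libraries labelled as deleted that goes against the label if the whole gene is meant, and the sources used here do not state how much of the gene was deleted.

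In the WT pair the 3 core genes spanned a wide range of levels. The mean normalized count was 6437 for pho1, at percentile 90.3 of the 5071 genes above 0. For pho84 it was 2135, at percentile 76.4, and for tgp1 594, at percentile 36.0. Per kilobase of transcript, the scale on which different genes can be compared, pho1 stood at 4158, pho84 at 1017 and tgp1 at 282, so that pho1 was 14.7 times as high as tgp1.

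In the epe1KO pair the order of the core genes was the same and the levels were higher. The phosphatase gene pho1 had a mean of 29659, at percentile 98.1 of 5082 genes above 0, and took 0.190% of the summed means, against 0.0287% in the WT pair. Its transporter neighbour pho84 had a mean of 7778, at percentile 92.9. The glycerophosphodiester transporter gene tgp1 had a mean of 1680, at percentile 72.2. Per kilobase, pho1 was 24.0 times as high as tgp1 in this pair.

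The 2 genes beside tgp1 were among the low genes of the WT pair. SPBC1271.08c, annotated as an uncharacterized protein, had a mean of 140 there, at percentile 9.41. SPBC1271.07c, annotated as an N-acetyltransferase, had a mean of 227, at percentile 13.7. Per kilobase of transcript they stood at 93.3 and 210, below tgp1 at 282. With coding length in place of transcript length, SPBC1271.07c stood above tgp1 in this pair, at 462 against 374, and SPBC1271.08c below it. In the epe1KO pair their means were 2652 and 2343, at percentiles 81.5 and 79.4. Per kilobase of transcript both were above tgp1, by 2.22 and 2.71 times. With coding length they stood at 6269 and 4763, against 1059 for tgp1, so the ratios and the order of these neighbours depend on the length used.

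The 4 regulators lay between percentiles 15.5 and 60.8 in the WT pair and between 28.5 and 75.3 in the epe1KO pair. The activator gene pho7 had a mean of 1084 in the WT pair and 799 in the epe1KO pair, at percentiles 57.1 and 41.7. The gene of the inositol pyrophosphate kinase, asp1, had means of 1093 and 691, at percentiles 57.6 and 35.5. For aps1, which encodes a hydrolase of these molecules and of diadenosine polyphosphates, the means were 1211 and 1902, at percentiles 60.8 and 75.3. The ratio of asp1 to aps1 per kilobase was 0.43 in the WT pair and 0.17 in the epe1KO pair. The kinase gene csk1 was the lowest regulator per kilobase in the WT pair, with a mean of 258 at percentile 15.5, and its mean was 583 at percentile 28.5 in the epe1KO pair.

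**Figure D1:**
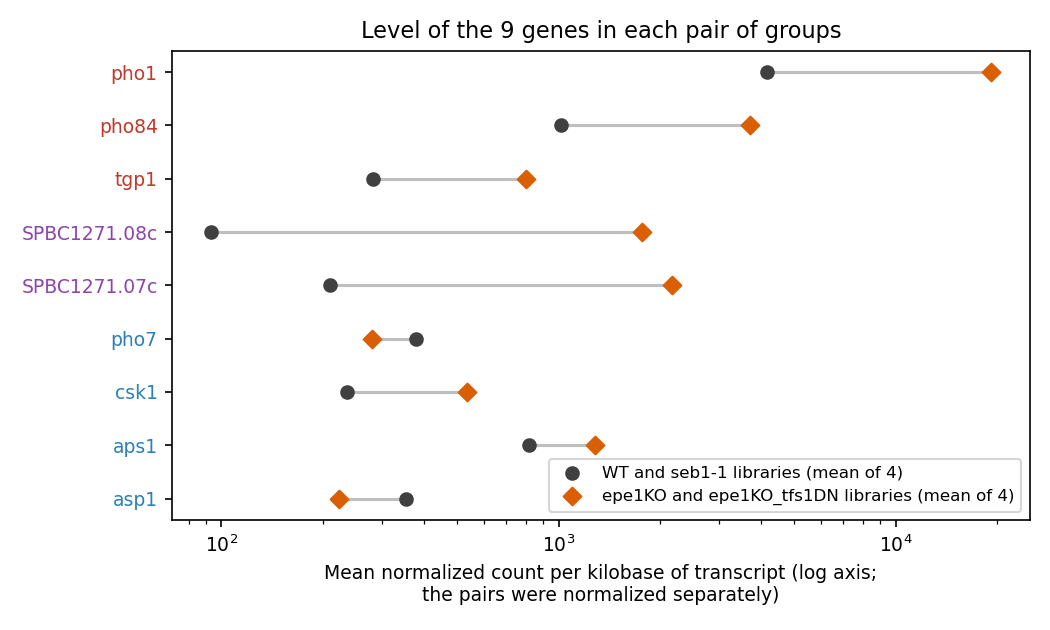
Mean normalized count per kilobase of transcript (log axis) of each of the 9 genes in the WT pair (circles) and the epe1KO pair (diamonds), each point a mean over 4 libraries with no spread given. SPBC1271.08c moves farthest, from 93.3 to 1773, while the normalized counts of pho7 and asp1 are lower in the epe1KO pair, a direction that for pho7 turns when levels are taken as shares of the sum.

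Over all 9 genes, the order per kilobase in the WT pair ran from pho1 through pho84, aps1, pho7, asp1, tgp1, csk1 and SPBC1271.07c to SPBC1271.08c. In the epe1KO pair it ran from pho1 through pho84, SPBC1271.07c, SPBC1271.08c, aps1, tgp1, csk1 and pho7 to asp1, so that by transcript length the 2 neighbours of tgp1 stood last in the WT pair and just after pho84 in the epe1KO pair. With coding length the places in the WT pair differed, with SPBC1271.07c just after pho7 and csk1 last. In the epe1KO pair, SPBC1271.08c and then SPBC1271.07c came between pho1 and pho84 by coding length. The spread between libraries behind any 2 adjacent places is not in these means. Counting error alone was small: if all reads came from the shallowest library it was at most 4.71% of the mean for SPBC1271.08c in the WT pair and at most 4.02% for csk1 in the epe1KO pair, the highest in each pair.

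The difference between the pairs was set out for all 4936 genes with a mean of at least 10 in both. It is the log2 ratio of a gene's share of the summed means, epe1KO pair over WT pair. The median of all genes on this scale was 0.63. The 20 highest genes held 25.4% of the sum in the WT pair and 16.3% in the epe1KO pair, and without the 20 genes highest over both pairs the median was 0.46. Differences are therefore given relative to that median. The tables were normalized separately, and strain and construct cannot be told apart between the pairs. Whether the pairs shared a sequencing run is not stated in the sources used here.

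Of the 9 genes, 6 were more than 2-fold higher in the epe1KO pair than the all-gene median, 0 were more than 2-fold lower, and 3 lay within 2-fold. Of all genes compared, 7.31% were more than 2-fold higher and 7.94% more than 2-fold lower. The median of the 9 genes was 1.39 on the log2 scale, where that of all genes is 0 and the quartiles of all genes are -0.46 and 0.44. Before centring, 7 of the 9 genes were more than 2-fold higher, beside 29.1% of all genes, with 2.33% of all genes lower. The 9 genes were chosen with earlier results of these data known, so their count is no test of the regulon.

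The core genes were all higher in the epe1KO pair, in the order pho1, pho84 and tgp1. The log2 difference of pho1 was 2.09 relative to the median of all genes, a ratio of 4.26, which was number 33 of 4936 from the highest. That of pho84 was 1.75, a ratio of 3.37, and that of tgp1 was 1.39, a ratio of 2.62. They stood at percentiles 99.3, 98.7 and 96.9 of all differences, so each of the 3 genes lay beyond the 95th percentile, which was at 1.18.

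The neighbours of tgp1 stood further out than tgp1 itself. SPBC1271.08c had a log2 difference of 4.14, a ratio of 17.6, which was number 2 of all 4936 genes. SPBC1271.07c had a difference of 3.26, a ratio of 9.55, and was number 10. The WT-pair means behind these ratios rest on at least 450 and 732 reads, which is a counting error of at most 4.71% and 3.70%.

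Among the regulators, csk1 was higher and the others lay within 2-fold of the all-gene median. The difference of csk1 was 1.06, a ratio of 2.09 just past the 2-fold limit. That of aps1 was 0.54. For pho7 the difference was -0.55 relative to the median and 0.08 before centring, so its direction depends on the scaling. For asp1 it was -0.77 relative to the median and -0.14 before centring. The activator and the pyrophosphate kinase thus did not share the direction of the core genes on the centred scale.

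**Figure D2:**
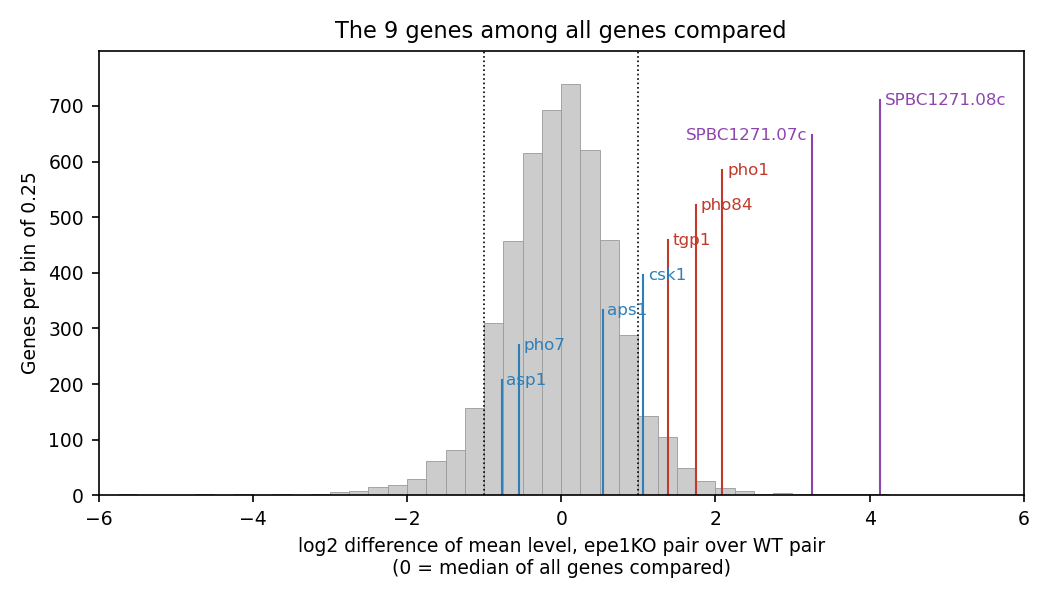
Number of genes in each bin of log2 difference, epe1KO pair over WT pair, with 0 at the median of the 4936 genes compared, and coloured lines for the core genes (red), the neighbours of tgp1 (purple) and the regulators (blue). The dotted lines mark 2-fold, and 6 of the 9 genes lie to the right of the upper one.

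Gene order was read from the reference annotation, in which all 3 core genes lie on chromosome II. At tgp1, the elevated levels covered the gene and the 2 neighbours on one side. SPBC1271.08c is the next listed gene upstream of tgp1, is transcribed away from it, and is followed on the same strand by SPBC1271.07c. On the other side, SPBC1271.10c, annotated as a transporter, had a difference of -0.22 with means of 1140 and 1059. Beyond SPBC1271.07c, mug96 was listed at 0 in the WT pair and at 0.71 in the epe1KO pair, and the zinc-finger gene SPBC1271.05c had a difference of 0.43. Among 8 listed genes on each side of tgp1, 13 are not members and could be compared. Like most of all genes compared, these 13 lay within 2-fold, from -0.51 to 0.95. The highest of these was the F-box gene pof13.

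The pattern around pho84 and pho1 was broader. These genes are adjacent among the listed genes, on the same strand and in the order prt2, pho84, pho1. Of 13 other genes compared within 8 places of pho84, 7 were more than 2-fold higher and 1 was lower. Among all genes compared, 7.31% were higher and 7.94% lower by this limit. Just upstream, the lncRNA gene prt2, listed under the older ID SPBC8E4.02c, had means of 309 and 772 and a difference of 1.21. The next gene, ecl3, had a difference of 1.04, and the agmatinase-like gene SPBC8E4.03 had 0.78. The levels returned to the all-gene median at SPBC8E4.04, with -0.10, and cao2, which encodes a protein related to amine oxidases, was lower, with -1.45. Per kilobase, pho84 stood 11.3 times as high as prt2 in the WT pair and 16.4 times in the epe1KO pair.

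Beyond pho1, towards the right end of chromosome II, several low genes had larger differences than pho1 itself. The next gene, fub2, was not one of them, with means of 12.2 and 34.8 and a difference of 1.40. The amino acid permease gene nrg1 had means of 35.0 and 443 and a difference of 3.55. SPBPB2B2.06c, annotated as a phosphoprotein phosphatase, had means of 65.3 and 868 and a difference of 3.62. SPBPB2B2.08, an uncharacterized gene, had means of 10.9 and 168 and a difference of 3.84. Of the 23 listed genes between pho1 and this chromosome end, 12 could be compared. Of these, 5 were more than 2-fold higher, 1 was lower and 6 lay within 2-fold. The 5 higher genes are all among those already counted around pho84. The 23 outermost listed genes at the other ends of chromosomes I and II, counted in the same way after these values had been seen, gave 5 higher of 7 compared at the left end of II, 0 of 6 at the left end of I, and 0 of 6 at the right end of I, where 4 were lower. Genes near chromosome ends belong in part to families of similar copies, whose reads can be shared between copies. The part of chromosome position in the values of pho84 and pho1 was not tested.

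**Figure D3:**
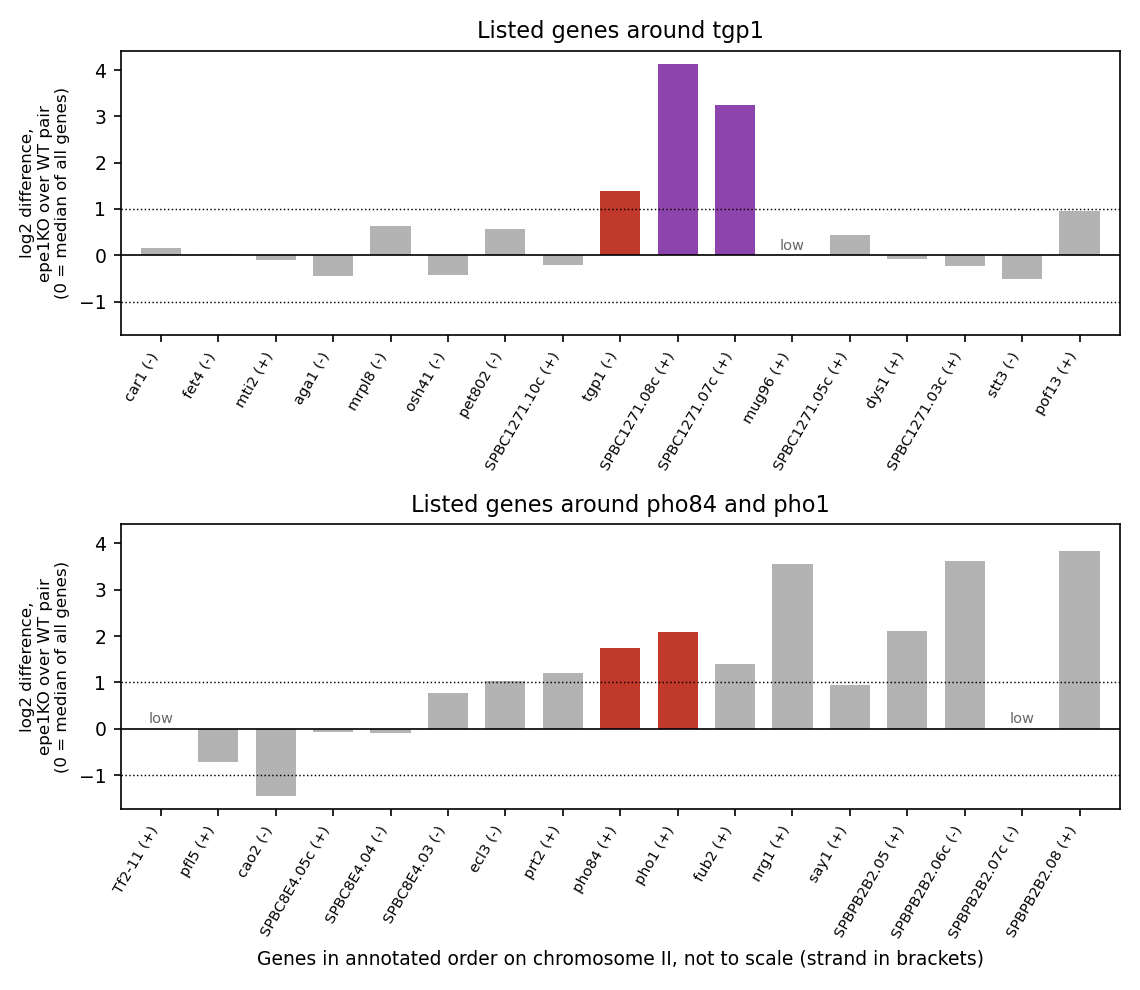
Log2 difference, epe1KO pair over WT pair with 0 at the all-gene median, of tgp1 (top) and of pho84 (bottom) with 8 listed genes on each side, in annotated order and not to scale, with members of the 9 genes coloured and genes too low to compare marked "low". Around tgp1 only SPBC1271.08c and SPBC1271.07c join it above the upper 2-fold line, while around pho84 and pho1 other genes do so too, up to 3.84.

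Overlapping transcripts limit how these levels can be assigned. In the reference annotation, prt2 overlaps pho84, the lncRNA gene of pho1 (prt, named nc-pho1 there) overlaps pho1, and nc-tgp1 overlaps tgp1, each on the same strand, so reads in the overlap cannot be assigned with certainty to the mRNA or the lncRNA. Annotated antisense RNAs also lie over tgp1 and over SPBC1271.08c. The libraries were directional, and whether reads were counted by strand is not stated. Of the 3 lncRNAs, only prt2 could be matched to a listed gene, so the levels of prt and nc-tgp1 were not analysed here.

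Other genes of phosphate handling were read beside the core genes. Of 13 symbols, 12 were listed, and xpr1 was not matched. Beside 7.31% higher and 7.94% lower among all genes compared, 2 of the 9 listed genes besides the core were more than 2-fold higher and 0 lower. The other 7 lay within 2-fold, and the median of the 9 was 0.22. The highest was nrf1, a subunit of the vacuolar transporter chaperone complex that makes polyphosphate, with means of 1514 and 7083 and a difference of 2.11, close to that of pho1. The ubiquitin ligase gene pqr1 lay at the limit, with 1.01. The phosphatase gene pho2 had 0.94 and vtc2, another gene of the chaperone complex, 0.74. Its fellow gene of that complex, vtc4, had 0.13, and pho8 had 0.08. The gene gde1 had -0.51, the 1 listed gene of phosphate handling below the all-gene median. The other phosphate transporter gene on the list, pho842, had 0.22, its relatives pho841 and pho843, added after values were seen, had 0.13 and 0.26, and the acid phosphatase gene pho4, which thiamine represses, had 0.01. The elevated values were therefore found for some genes of phosphate handling and not for its other transporters.

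The genes of inositol pyrophosphate metabolism showed no common direction. Of 6 genes, 3 lay above and 3 below the all-gene median. The one past 2-fold was arg82, which encodes an inositol polyphosphate multikinase, with means of 261 and 742 and a difference of 1.40. The phosphatase gene siw14 had a difference of 0.38, ipk1 had -0.19, and kcs1 had -0.63, near asp1.

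Genes of kinases that act on the tail of RNAPII, of their partner proteins and of the activator Csk1 were also split. Of these 5 genes, csk1 was the one past 2-fold. The genes of the kinase module of TFIIH, whose kinase Mcs6 is activated by Csk1, had differences of 0.98 for the cyclin gene mcs2, -0.02 for the assembly factor gene pmh1 and -0.84 for the kinase gene mcs6. The elongation kinase gene cdk9 had -0.65.

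Termination factors, which decide how far an upstream lncRNA is transcribed, all lay within 2-fold of the all-gene median, as most genes did. Of all genes compared, 7.31% were more than 2-fold higher and 7.94% more than 2-fold lower, so this does not set the list apart. Of the 10 genes, 2 lay above and 8 below the median, with a list median of -0.24. The lowest was pcf11 at -0.71 and the highest swd22, of the cleavage and polyadenylation factor, at 0.51. The gene of Seb1 itself had means of 3558 and 3032 and a difference of -0.34, and rhn1, whose product binds the RNAPII tail, had the same value of -0.34. Among the RNA elimination factors, mmi1 was the lowest at -0.96, and erh1, red1 and rrp6 lay between -0.07 and 0.06.

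**Figure D4:**
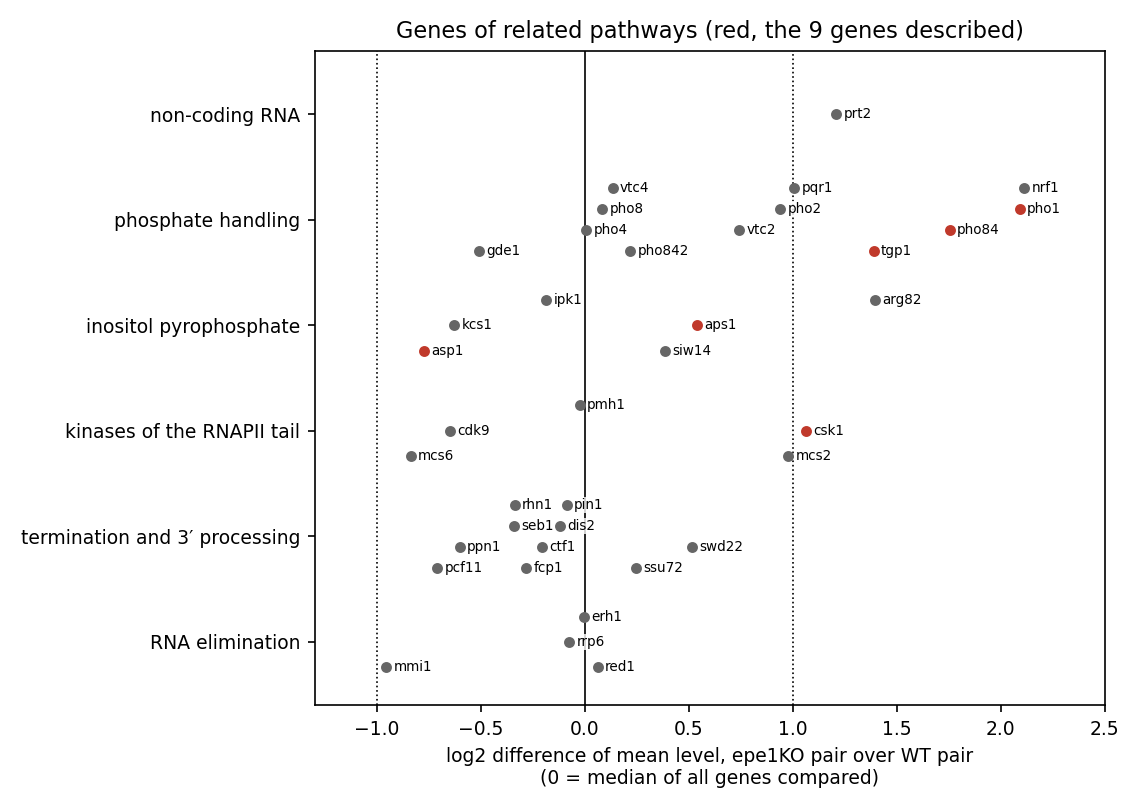
Log2 difference, epe1KO pair over WT pair with 0 at the all-gene median, of each listed gene in 6 lists, with members of the 9 genes in red and 2-fold marked by dotted lines. Phosphate handling reaches 2.11 at nrf1 and 2.09 at pho1, and the 10 termination genes lie between -0.71 and 0.51, within 2-fold as most of all genes are.

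Some other genes with known nutrient responses also differed between the pairs. The thiamine-repressed gene nmt1 had means of 13.7 and 263 and a difference of 4.15, number 1 of all genes compared, with SPBC1271.08c next in rank. The tfs1DN construct in the epe1KO pair is under the nmt1 promoter. Whether reads from the construct were counted at nmt1 was not tested. Of genes that respond to glucose, 3 from the low end of all differences are named, with no count over other such genes: the glycerol dehydrogenase gene gld1 had means of 21611 and 887, the hexose transporter gene ght1 4153 and 198, and the invertase gene inv1 6613 and 549, with differences of -4.72, -4.50 and -3.70. The uracil synthesis gene ura4, often used as a marker in strain construction, had means of 2022 and 7.98, and leu1, at which tfs1DN was inserted, had 9767 and 13643. These genes were chosen for mention after their values were seen. The part of nutrients or strain background in the values of the phosphate genes was not tested.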

How the data were processed

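Directional poly(A)-selected libraries were aligned by the authors with TopHat, and DESeq2 was used by the authors on 2 libraries per group, with genome build ASM294v2 per the labels. The sources used here do not give the counting tool, its strand setting or versions, nor whether the libraries of a group came from separate cultures. The authors deposited 1 table per pair of groups. The signal the authors deposited in each table, the only column used, is the mean over 4 libraries of counts divided by size factors. The 5 other numeric columns of each table hold the authors' own comparison (fold change, its error, test statistic, p and adjusted p) and were not used.

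Shares, percentiles, levels per kilobase and log2 ratios between tables were computed with Python, using numpy 2.4.6 and pandas 2.3.3. The log2 ratios and the finding of the steps in the lowest means were tested on simulated data. Genes with a mean of at least 10 in both tables were compared, and 2-fold against the all-gene median was the limit. Of 5129 IDs, 5114 were matched to the RefSeq annotation of ASM294v3, used for names, lengths and gene order only, because the builds differ. No sequences or coordinates are given for that reason, and the planned promoter and protein descriptions were not made. Members and lists were chosen with earlier results of these data known. The genes named are the 9 members, their neighbours and the members of the lists, and those chosen after their values were seen are said to be so. Other scalings, a pseudocount, other sets of genes and coding length were tried.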

Additional observations from a re-analysis of the deposited data

How the results depend on the processing

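The median log2 difference of the 9 genes between the pairs was 2.02 as shares of the summed means. It was 1.39 with median-of-ratios scaling, 1.85 when the 20 highest genes were left out of the sum and 1.50 with the authors' size factors alone. These shifts move all genes together, and relative to the all-gene median it was 1.39 under each of them. With a pseudocount of 1 on shares scaled to CPM it was 1.98 before centring and 1.37 relative to the all-gene median. Without SPBC1271.08c and SPBC1271.07c, an alternative chosen after seeing the data, it was 1.70 as shares before centring, against 2.02 with all 9 genes. Relative to the all-gene median this is 1.06, the value of csk1, against 1.39. The number of members more than 2-fold above the all-gene median was again 6 with the pseudocount. The other scalings could not change this count, because they move all genes together. At a 4-fold limit, also chosen after seeing the data, the count was 3 (pho1, SPBC1271.08c and SPBC1271.07c). This limit, 2 on the log2 scale, lies above the 99th percentile of all genes compared, which was at 1.88. The lowest of the 3, pho1, was number 33 of 4936. Of the single values, 29 differences under another scaling and 26 percentiles under another set of genes or per kilobase moved by more than counting error. All 18 levels per kilobase with coding length did so too, while 7 differences and 28 percentiles did not. The differences past 2-fold could not reverse under these scalings, so their unchanged direction tests nothing. With coding length, aps1 came before pho84, SPBC1271.07c before asp1 and tgp1, and SPBC1271.08c before csk1 in the WT pair, and SPBC1271.08c before SPBC1271.07c and pho84 in the epe1KO pair. No paired analysis was possible because the deposited means hold no value per library, and for the same reason leaving out replicates was not run. The shallow library of the epe1KO pair enters its means with the same weight as the others, and the values without it could not be computed.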
